A study of Mus musculus with 6 samples.

Results

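The genes described here code for the proteins of the cytosolic ribosome, measured in NK cells sorted from mouse spleen after treatment with cytokine complexes. They were chosen by name: every gene called Rpl or Rps followed by a digit, together with Rplp0, Rplp1, Rplp2 and Rpsa, leaving out the Rps6k kinases and names that carry -ps. This gave 88 of the 24343 genes in the tables, 53 of the large subunit and 35 of the small subunit. Of the 88, 77 code for standard subunit proteins, and the other 11 are paralogs, retrocopies or partners that share the naming (Rpl3l, Rpl10l, Rpl22l1, Rpl36al, Rpl37rt, Rpl39l, Rpl7l1, Rps27l, Rps27rt, Rps4l and Rps19bp1). Fau and Gnb2l1 code for subunit proteins too but fall outside the naming rule, and are given further down.

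RNA of splenic NK cells from female C57BL/6 mice was sequenced in 6 libraries. In 3 of them the animals had received IL-15 as a cytokine complex (IL-15C), in the other 3 IL-2 in that form (IL-2C). None of these libraries is from untreated mice, so no untreated level is compared. Cells were sorted as NK1.1 and NKp46 positive, CD3 negative and CD1d tetramer negative; dose, time and age are not given in the labels. Whether each library had its own mice is not stated either, so the p-values reflect only how far these samples spread, possibly for technical reasons. In bulk RNA, fewer cells of a type and less RNA per cell cannot be told apart.

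A ribosome is built from a large subunit, which joins amino acids, and a small subunit, which reads the mRNA. Each protein is needed in about the same number of copies, and the mRNAs of nearly all of them start with a 5′ terminal oligopyrimidine (TOP) tract, a run of C and T letters right at the first transcribed base. Through that tract their translation is held back or released together by mTORC1 and by the RNA-binding protein LARP1. IL-2 and IL-15 use the same signalling receptor chains on lymphocytes, and ribosome production is a known part of the growth response of NK cells to cytokine.

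The TOP tract was looked for in the RefSeq promoter windows of mouse build GRCm38.p6, the build of the deposited files, where 67 of the 88 genes and 57 of the 77 standard genes had an entry. The following stretches of 15 bases before the annotated start and 15 from it on show genes with a long run of C and T near that start. Last come both annotated starts of Rpl22, where the longest run in the stretch is shorter. The stretches were chosen after the windows were read, and capitals mark the longest run of C and T. Not all of the marked runs begin at the annotated start. At the second start of Rpl22 a window reaching 60 bases upstream holds a run of 14.
Rpl15 (chr14:18270972-18271001, minus strand): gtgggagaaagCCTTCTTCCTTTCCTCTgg
Rpl35 (chr2:39005117-39005146, minus strand): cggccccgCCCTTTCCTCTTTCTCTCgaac
Rpl7a (chr2:26910792-26910821, plus strand): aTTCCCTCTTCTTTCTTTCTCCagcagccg
Rps6 (chr4:86857353-86857382, minus strand): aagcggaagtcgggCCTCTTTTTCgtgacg
Rps10 (chr17:27635230-27635259, minus strand): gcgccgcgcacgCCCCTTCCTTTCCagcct
Rps18 (chr17:33955651-33955680, minus strand): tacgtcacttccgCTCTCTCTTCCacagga
Rps27 (chr3:90213634-90213663, minus strand): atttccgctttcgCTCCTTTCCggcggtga
Rpl22l1 (chr3:28805493-28805522, plus strand): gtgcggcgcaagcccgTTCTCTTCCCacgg
Rpl22 (chr4:152324421-152324450, plus strand): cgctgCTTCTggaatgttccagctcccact
Rpl22 (chr4:152325711-152325740, plus strand): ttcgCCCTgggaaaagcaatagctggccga

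A run of at least 8 pyrimidines on the gene's own strand, within the 20 bases on either side of an annotated start, was present in 28 of the 57 standard genes (49.1%), against 18.4% of all 27025 genes in the promoter table. On the other strand the same run was present in 5 of 57 (8.77%), against 20.2% of all genes. The letters CTTTCC on the gene's strand were found in 10 of 57 (17.5%) and in 2.30% of all genes, and on the other strand in 0 of 57 and 2.03%. CTTTTC was found on the gene's strand in 5 of 57 (8.77%) and in 1.68% of all genes, and on the other strand in 1 of 57 (1.75%) and 1.53%. Such runs overlap one another, since CTTTCC and CTTTTC are themselves made of pyrimidines. Genes without a match only lack these letters in this window, and annotated starts can lie some bases off the start used in NK cells.

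Levels are FPKM, the fragments found per kilobase of a transcript after scaling to the library's size, so genes of different length can be compared. Read as counting error, the deposited intervals imply 23524478 to 27210155 fragments per library, which is a rough figure only. Between 14481 and 14685 genes were above 0. Among the 100 genes of highest mean FPKM, 47 were ribosomal protein genes, and 75 of the 88 had a mean of at least 100 FPKM. The 77 standard genes lay close together, with 67 of them between 100 and 1000 FPKM. The highest large subunit genes were Rplp1 of the acidic stalk (mean 1212 FPKM), Rpl39, which lines the tunnel the new chain leaves by (1119 FPKM), and Rpl23a, the docking protein at the tunnel exit (974 FPKM). The highest small subunit rows were Rps27rt (3053 FPKM, rank 5 among all genes) and Rps23 of the decoding centre (1366 FPKM).

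The lowest tested rows were Rpl26 (8.85 FPKM), Rpl7l1 (14.98 FPKM) and Rpl30 (15.3 FPKM) of the large subunit, and Rps19bp1 (7.40 FPKM), Rps4l (9.81 FPKM) and Rps27 (34.7 FPKM) of the small subunit. Rpl26, Rpl30 and Rps27 code for standard proteins of every ribosome, and their low rows are taken up below. Genes with a mean of at least 1 FPKM over the 6 libraries were tested, 84 of the 88. The other 4 are large subunit paralogs or copies. Rpl3l, the striated muscle form of Rpl3, and Rpl10l, the testis form of Rpl10, were listed at 0 in all 6 libraries. Rpl39l, a paralog of Rpl39, reached at most 0.350 FPKM and Rpl37rt at most 1.57 FPKM.

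**Figure D1:**
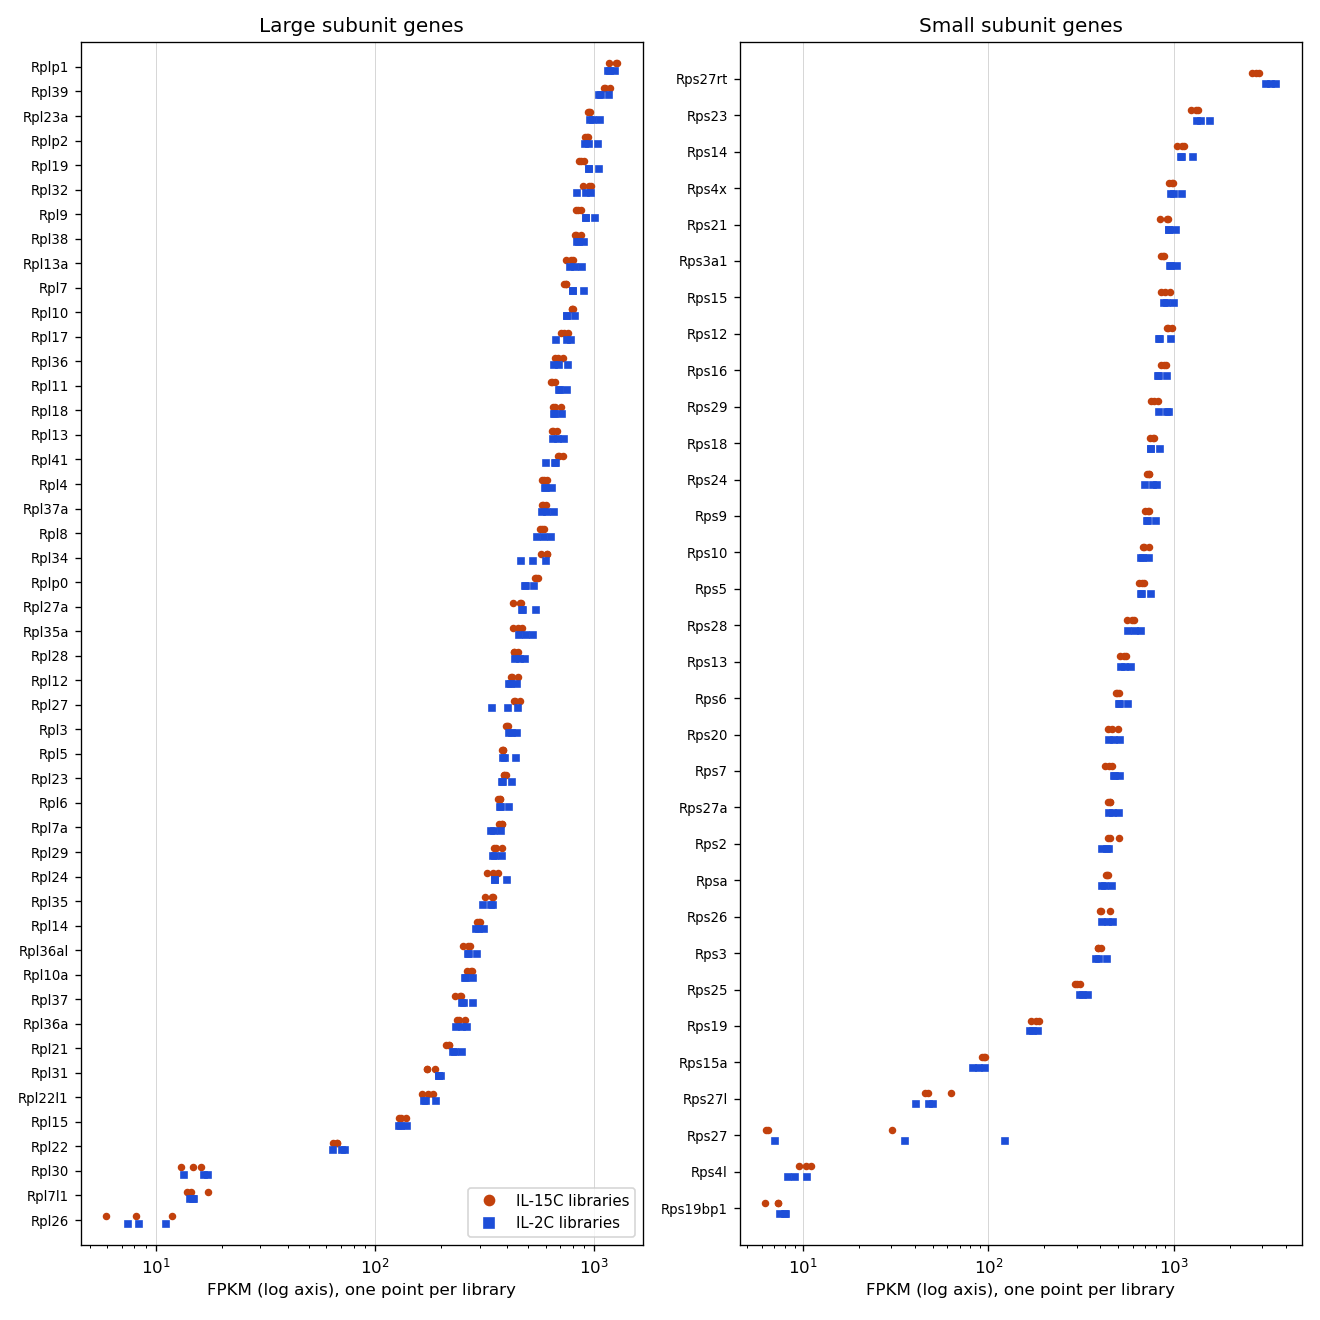
FPKM (log axis) of the tested ribosomal protein genes reported here, ordered by mean, with one point per library (circles IL-15C, squares IL-2C). Most genes sit between 100 and 1000 FPKM in all 6 libraries, while Rpl26, Rpl30, Rps27, Rpl7l1, Rps4l and Rps19bp1 lie far below and Rps27rt far above the rest.

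IL-2C replicate 1 had the highest value for 63 of the 84 tested genes, and the median gene there was 0.12 above its mean over the 6 libraries on the log2 scale. Of all tested genes, 33.8% were highest in that library, and its summed FPKM was the largest of the 6 (378108 against 352868 to 364951). After division by summed FPKM, it was still highest for 42 of the 84. On that scale IL-15C replicate 1 was the lowest library for 38 of the 84, followed by IL-2C replicate 2 with 19. In undivided FPKM, IL-15C replicate 1 and IL-15C replicate 3 were each the lowest library for 23 of the 84. No share over all tested genes was computed for the lowest library, or on the divided scale. Those counts are therefore not read as a result about these genes.

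**Figure D2:**
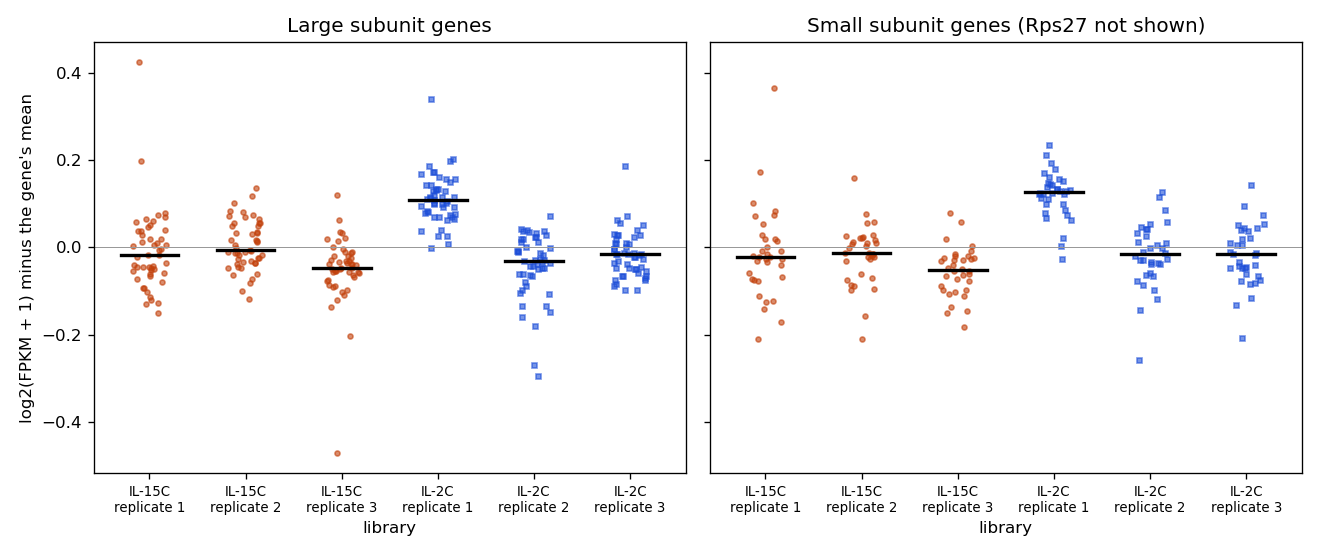
Each tested gene's log2(FPKM + 1) in a library minus its mean over the 6 libraries (circles IL-15C, squares IL-2C; black bars are medians; Rps27 not shown). Nearly all genes of both subunits are above their mean in IL-2C replicate 1, where the median over both subunits is 0.12.

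None of the 84 tested genes was called between IL-15C and IL-2C at an adjusted p under 0.05 (limma on log2(FPKM + 1), two-sided, Benjamini-Hochberg over all 9831 tested genes). Among all tested genes the same test called 1.72% higher and 4.72% lower after IL-15C. At an unadjusted p under 0.05, 0 of the 84 were higher, against 6.48% of all tested genes, and 13 were lower, 6 of the large and 7 of the small subunit, against 20.4% of all tested genes. The 95% interval of the change lay within 0.5 of 0 on the log2 scale for 82 of the 84. The exceptions were Rpl26 (-0.54 to 0.37) and Rps27 (-3.45 to 0.50), both low rows. An absent call does not show that the levels were equal, and the median half-width of the intervals was 0.14.

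The large subunit had a median change of -0.05 with 35 of 49 genes below 0, and the small subunit a median of -0.07 with 26 of 35 below 0. Over all tested genes the median was -0.04 and 64.7% were below 0. The IL-15C libraries lay wholly above the IL-2C libraries for 2 large and 0 small subunit genes, together 2.38% of those tested, against 8.15% of all tested genes. They lay wholly below for 13 large and 10 small subunit genes, together 27.4%, against 25.1%. The share of genes with separated groups below is thus near that of all genes. In the large subunit these included Rpl3, Rpl5, Rpl6, Rpl7, Rpl9, Rpl11, Rpl19, Rpl21, Rpl23a, Rpl27a, Rpl31 and Rpl37, and in the small subunit Rps3a1, Rps6, Rps7, Rps19bp1, Rps21, Rps25, Rps27rt and Rps29. Without IL-2C replicate 1, 0 of the 84 were called as well, and the median change was 0.001 for the large and -0.015 for the small subunit, against -0.03 for all tested genes. Both medians then lay above that of all genes, where with the library they lay below it.

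**Figure D3:**
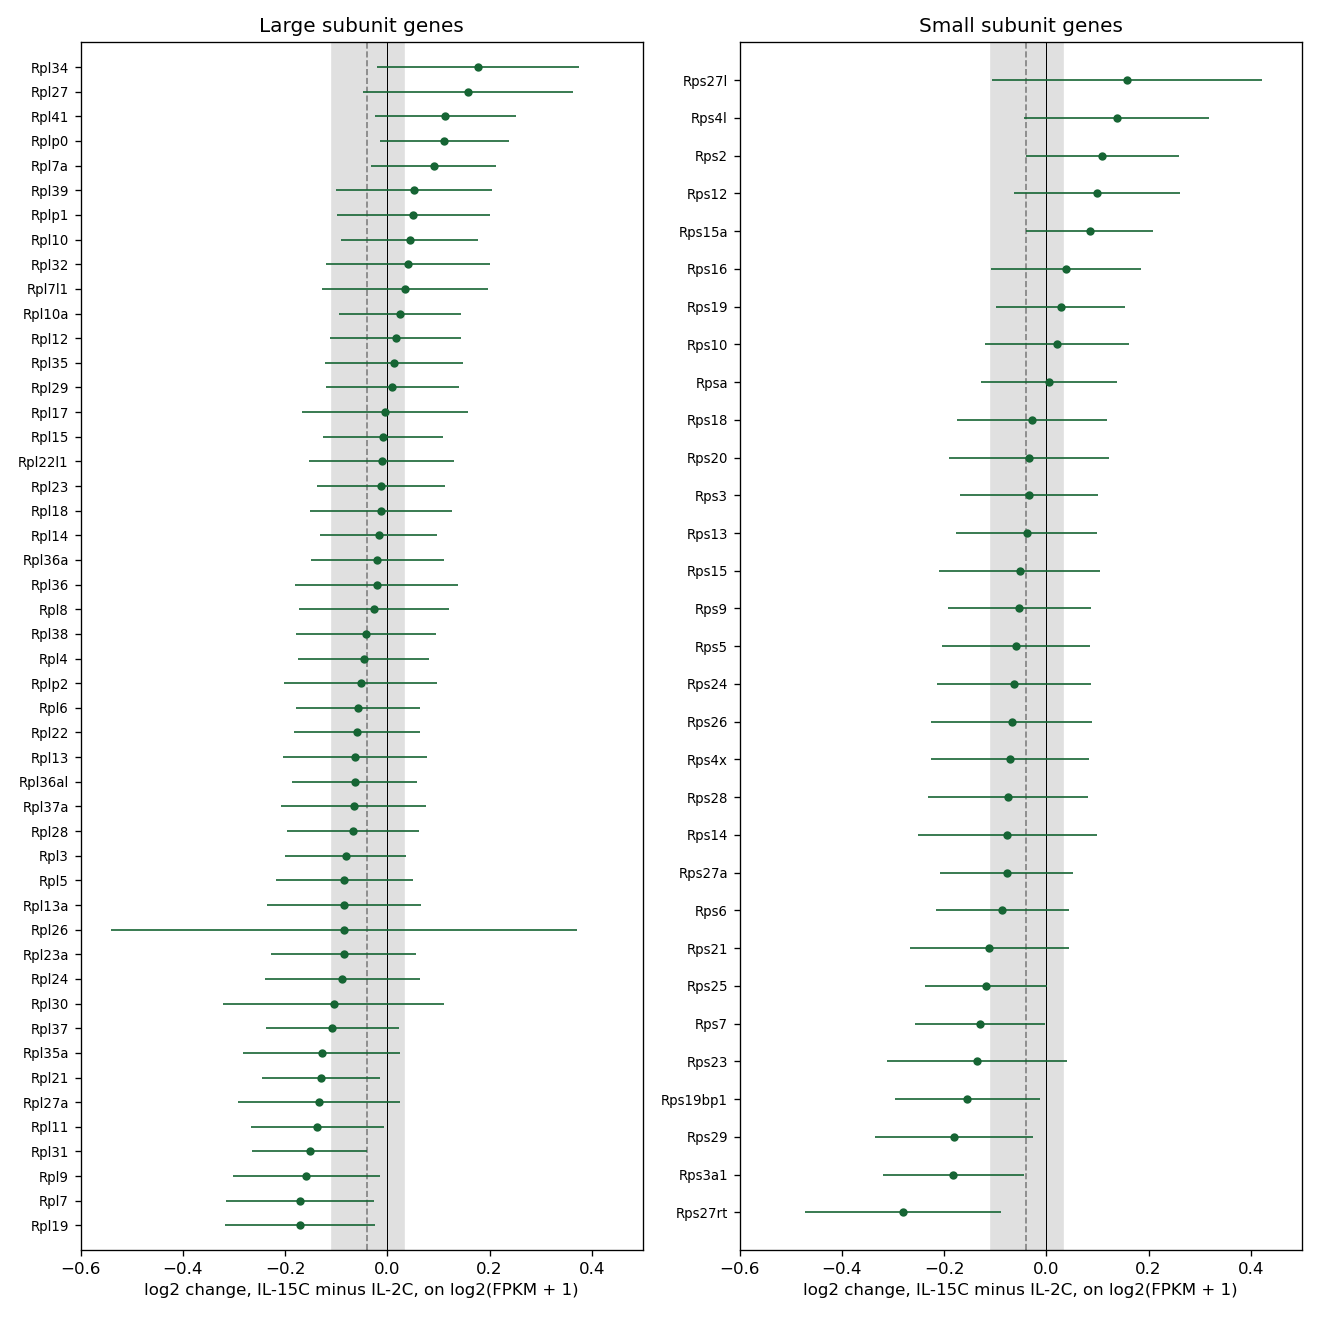
Change of each tested gene reported here (IL-15C minus IL-2C, on log2(FPKM + 1)) with its 95% interval, for the large and the small subunit, without Rps27. The grey band spans the lower to upper quartile of all tested genes (-0.11 to 0.03) and the dashed line is their median (-0.04); points run from -0.17 to 0.18 in the large and from -0.28 to 0.16 in the small subunit.

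The changes given from here on are on the log2(FPKM + 1) scale, IL-15C minus IL-2C, with ± 1 standard error of the fit and n = 3 against 3, and each adjusted p is limma's.

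The P stalk, which recruits elongation factors to the large subunit, is built from Rplp0, Rplp1 and Rplp2 on a base that includes Rpl12. Rplp0, the scaffold, was at 541, 552 and 534 FPKM after IL-15C and 532, 485 and 491 FPKM after IL-2C. The IL-15C libraries were all above the IL-2C libraries, with a change of 0.11 ± 0.06, adjusted p = 0.236. Rplp1, one of the acidic tips, was at 1275, 1254 and 1172 FPKM after IL-15C and 1243, 1179 and 1150.2 FPKM after IL-2C, and its groups overlapped (0.05 ± 0.07, adjusted p = 0.654). Its partner Rplp2 was at 931, 940.5 and 912 FPKM after IL-15C and 1036, 945 and 909.5 FPKM after IL-2C and likewise overlapped (-0.05 ± 0.07, adjusted p = 0.644). Rpl12 was at 448, 423 and 417 FPKM after IL-15C and 446, 418 and 409 FPKM after IL-2C, with overlapping groups (0.02 ± 0.06, adjusted p = 0.879). All 4 stalk genes were thus tested and none was called.

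Rpl5 and Rpl11 carry the 5S rRNA into the large subunit and, when ribosome assembly fails, bind MDM2, the ubiquitin ligase of p53. Rpl5 was at 382, 380.0 and 382 FPKM after IL-15C and 438, 385 and 392 FPKM after IL-2C, a change of -0.08 ± 0.06, adjusted p = 0.392. Rpl11 was at 645, 661 and 634 FPKM after IL-15C and 748, 698 and 688 FPKM after IL-2C, a change of -0.14 ± 0.06, adjusted p = 0.166. In both genes every IL-15C library lay below every IL-2C library, and neither was called. Without IL-2C replicate 1 the change was -0.03 for Rpl5 and -0.10 for Rpl11.

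Of the 8 genes at the peptide exit tunnel, 0 were called and 6 had a change below 0 (median -0.07). Without IL-2C replicate 1, 4 of the 8 were below 0 and the median was 0.009. Rpl31 had the lowest adjusted p of the large subunit. It was at 189, 172 and 172 FPKM after IL-15C and 199, 197 and 196 FPKM after IL-2C, without overlap (-0.15 ± 0.05, adjusted p = 0.0957). Without IL-2C replicate 1 its change was -0.14 (adjusted p = 0.185). Rpl19 had the lowest change of the large subunit, at 849, 894 and 866 FPKM after IL-15C and 1049.5, 948 and 942 FPKM after IL-2C (-0.17 ± 0.07, adjusted p = 0.135). Its 3 IL-15C libraries were again the lower ones. Rpl23a was at 943, 955 and 937 FPKM after IL-15C and 1065, 989.5 and 956 FPKM after IL-2C, where the IL-15C libraries were lower by a small margin (-0.09 ± 0.06, adjusted p = 0.411), and its change was -0.04 without IL-2C replicate 1.

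Among the other large subunit genes the next lowest changes were those of Rpl7 and Rpl9. Rpl7 was at 742, 746 and 731 FPKM after IL-15C and 899.6, 800.3 and 801 FPKM after IL-2C (-0.17 ± 0.06, adjusted p = 0.131). Rpl9 was at 828, 872 and 844 FPKM after IL-15C and 1009, 918 and 914 FPKM after IL-2C (-0.16 ± 0.06, adjusted p = 0.152). Both were separated between groups, and the highest library of each was IL-2C replicate 1.

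At the other end stood Rpl34, Rpl27, Rpl41 and Rpl7a. Rpl34 was at 571, 607 and 609 FPKM after IL-15C and 600.2, 465 and 523 FPKM after IL-2C (0.18 ± 0.09, adjusted p = 0.229), with groups that overlapped. Rpl27 was at 429, 459 and 437 FPKM after IL-15C and 449, 341 and 405 FPKM after IL-2C (0.16 ± 0.09, adjusted p = 0.295), and IL-2C replicate 2 was its lowest library. Leaving that library out brought the change to 0.09 for Rpl34 and 0.05 for Rpl27. Rpl41, which codes for the shortest protein of the ribosome, was at 692, 719 and 680.2 FPKM after IL-15C and 669.6, 604 and 660.1 FPKM after IL-2C (0.11 ± 0.06, adjusted p = 0.265), and only here and in Rplp0 were all IL-15C libraries the higher ones. Rpl7a was at 381, 379.9 and 369.9 FPKM after IL-15C and 376, 339 and 348 FPKM after IL-2C (0.09 ± 0.05, adjusted p = 0.314) and overlapped. Rpl39, of the tunnel wall, was at 1121, 1185 and 1111 FPKM after IL-15C and 1173, 1069 and 1056 FPKM after IL-2C (0.05 ± 0.07, adjusted p = 0.651), also with overlap.

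The small subunit genes of the head and decoding centre numbered 10, with 0 called and 7 below 0 (median -0.04). On leaving out IL-2C replicate 1, 5 of the 10 were below 0 and the median was 0.006. Rps29, a zinc-binding protein of the head, was at 823, 784 and 754 FPKM after IL-15C and 937, 915 and 828 FPKM after IL-2C (-0.18 ± 0.07, adjusted p = 0.131). Its closest values were 823 and 828 FPKM, so the groups were only just apart. Rps23, whose loop reaches into the decoding centre, was at 1235, 1349 and 1319.8 FPKM after IL-15C and 1559, 1403 and 1332 FPKM after IL-2C and overlapped (-0.14 ± 0.08, adjusted p = 0.296). Rps12, of the beak of the head, was at 974, 925 and 919.7 FPKM after IL-15C and 964, 836 and 838 FPKM after IL-2C (0.10 ± 0.07, adjusted p = 0.406), with overlap.

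At the mRNA entry and exit, 0 of 6 genes were called and 4 were below 0 (median -0.05). With IL-2C replicate 1 left out, 3 of the 6 were below 0 and the median was 0.007. Rps2, of the entry channel, was at 505, 455 and 439 FPKM after IL-15C and 449, 436 and 409 FPKM after IL-2C (0.11 ± 0.07, adjusted p = 0.322). One IL-2C library lay within the IL-15C range. Elsewhere in the small subunit, Rps3a1 was at 847, 885 and 869 FPKM after IL-15C and 1039, 962 and 952 FPKM after IL-2C, without overlap (-0.18 ± 0.06, adjusted p = 0.102). Rps6, the substrate of the S6 kinases downstream of mTORC1, was at 489, 508 and 496 FPKM after IL-15C and 562, 509 and 515 FPKM after IL-2C, where the closest values of the groups nearly met (-0.09 ± 0.06, adjusted p = 0.366), with a change of -0.04 without IL-2C replicate 1. Rps15a was at 92.6, 95.2 and 95.4 FPKM after IL-15C and 95.7, 82.9 and 88.6 FPKM after IL-2C, with overlap (0.08 ± 0.06, adjusted p = 0.350). None of these genes passed the threshold.

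Several standard proteins have a paralog that can take their place. Rpl22l1 can replace Rpl22, and the pair is known from lymphocyte development, where Rpl22 is needed by alpha-beta T cells. Rpl22 was at 67.5, 67.4 and 64.2 FPKM after IL-15C and 73.2, 64.1 and 70.5 FPKM after IL-2C (-0.06 ± 0.05, adjusted p = 0.515). Rpl22l1 was at 164, 184 and 175 FPKM after IL-15C and 189.8, 168 and 170.5 FPKM after IL-2C (-0.01 ± 0.06, adjusted p = 0.929). In every library the paralog was thus the higher of the pair per unit of transcript length. Its sign turned positive under median scaling (0.03).

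Rpl36al and its parent Rpl36a were at nearly the same level. Rpl36al, an intronless copy that is translated, was at 270.4, 267 and 253 FPKM after IL-15C and 292, 268 and 267 FPKM after IL-2C (-0.06 ± 0.05, adjusted p = 0.477). Rpl36a was at 257, 241 and 238 FPKM after IL-15C and 263, 249 and 234 FPKM after IL-2C (-0.02 ± 0.06, adjusted p = 0.858). Their annotated transcripts share 289 of 329 aligned bases (87.84%).

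Rps27l, a paralog of Rps27 induced by p53, was at 62.9, 45.8 and 47.2 FPKM after IL-15C and 47.8, 40.5 and 50.2 FPKM after IL-2C (0.16 ± 0.12, adjusted p = 0.413). IL-15C replicate 1 was its highest library and the groups overlapped, and without it the change was 0.02. Rpl7l1, a homologue of Rpl7, was at 17.3, 13.9 and 14.4 FPKM after IL-15C and 15.02, 14.8 and 14.4 FPKM after IL-2C (0.03 ± 0.07, adjusted p = 0.790), again with IL-15C replicate 1 highest. Rps4l, a copy of Rps4x that GENCODE lists as a transcribed processed pseudogene, was at 9.53, 11.04 and 10.4 FPKM after IL-15C and 10.5, 9.08 and 8.33 FPKM after IL-2C (0.14 ± 0.08, adjusted p = 0.301). Rps19bp1, a nucleolar protein named for binding Rps19, was at 7.29, 6.25 and 7.34 FPKM after IL-15C and 7.51, 8.09 and 7.95 FPKM after IL-2C (-0.15 ± 0.06, adjusted p = 0.155). It was separated between the groups, with the IL-15C libraries lower.

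The low rows of Rpl26, Rpl30 and Rps27 have a counterpart in the tables. For each, the deposited files place a second, differently named row on the same locus, and that row holds most of the FPKM. GENCODE vM21 places the genes of those names elsewhere in GRCm38, where it lists Gm15772, Gm12191 and Rpl34-ps1 (a row on the Rpl34 locus) as processed pseudogenes, copies made from the parent's mRNA, and Rps27rt as protein coding. The coding sequences of parent and copy are nearly or wholly the same letters. The stretches below, from the GENCODE transcripts, are shown because so few bases tell the members of each pair apart. Positions count from 1 at the A of the start codon and capitals mark the base that differs.
Rps27 (1 to 60): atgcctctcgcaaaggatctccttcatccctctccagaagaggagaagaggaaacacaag
Rps27rt (1 to 60): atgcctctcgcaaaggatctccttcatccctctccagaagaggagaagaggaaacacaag
Rpl30 (66 to 125): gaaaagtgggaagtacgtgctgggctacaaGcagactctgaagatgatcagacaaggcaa
Gm12191 (66 to 125): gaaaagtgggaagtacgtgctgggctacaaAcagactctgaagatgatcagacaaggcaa
Rpl26 (147 to 206): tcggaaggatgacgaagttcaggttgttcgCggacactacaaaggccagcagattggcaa
Gm15772 (147 to 206): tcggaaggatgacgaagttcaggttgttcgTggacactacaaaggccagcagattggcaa
Rpl34 (102 to 161): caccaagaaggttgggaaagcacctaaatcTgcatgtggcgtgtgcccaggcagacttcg
Rpl34-ps1 (102 to 161): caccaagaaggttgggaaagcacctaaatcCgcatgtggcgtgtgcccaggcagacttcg

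Rps27 and Rps27rt were identical over all 341 aligned bases, with a coding sequence of 255 bases. Rpl30 and Gm12191 shared 347 of 348 bases and differed by G96A. Rpl26 and Gm15772 shared 436 of 438 and differed by C177T and T288C. Rpl34 and Rpl34-ps1 shared 352 of 354 and differed by T132C and C318G. Each token gives the parent's base first.

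Rps27, a zinc-binding protein of the small subunit, is on chromosome 3 (chr3:90212667-90213648 in the files). Its row was at 6.34, 30.03 and 6.43 FPKM after IL-15C and 35.3, 123 and 7.02 FPKM after IL-2C, ranging widely within each group (-1.47 ± 0.88, adjusted p = 0.311). The row named Rps27rt, which GENCODE places at chr9:114982366-114982739, covers chr3:90212667-90213647 in the files. It was at 2625, 2882 and 2760.5 FPKM after IL-15C and 3574, 3126 and 3351 FPKM after IL-2C (-0.28 ± 0.09, adjusted p = 0.0781), with all IL-15C libraries below all IL-2C libraries. Without IL-2C replicate 1 its change was -0.23 (adjusted p = 0.132). It held 98.9% of the summed FPKM of both rows. Summed, the locus was at 2632, 2912 and 2767 FPKM after IL-15C and 3609, 3249.5 and 3358 FPKM after IL-2C. The change of the sum was -0.30 ± 0.08, adjusted p = 0.0615 (limma, summing chosen after seeing the data).

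The Rpl26 row was at 11.9, 8.11 and 5.94 FPKM after IL-15C and 11.2, 7.50 and 8.40 FPKM after IL-2C, while Gm15772 on the same locus (chr11:68901589-68904534) was at 668, 703 and 703 FPKM after IL-15C and 816, 732 and 719 FPKM after IL-2C. The Rpl30 row was at 16.1, 14.8 and 13.1 FPKM after IL-15C and 16.7, 13.5 and 17.4 FPKM after IL-2C, and Gm12191 on that locus (chr15:34440506-34443233) was at 786, 861 and 844 FPKM after IL-15C and 909, 823 and 843 FPKM after IL-2C. Summed, the Rpl26 locus was at 679.6, 711 and 709 FPKM after IL-15C and 827, 739 and 728 FPKM after IL-2C and the Rpl30 locus at 802, 876 and 857 FPKM after IL-15C and 926, 837 and 860.4 FPKM after IL-2C. Both sums lay among the levels of the other standard genes, with a change of -0.13 (adjusted p = 0.25, limma) at Rpl26 and -0.05 (adjusted p = 0.661) at Rpl30.

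Rpl34, on chromosome 3, differs in that the parent row is the larger. Rpl34-ps1 on the same locus (chr3:130726837-130730329) was at 179, 194 and 163 FPKM after IL-15C and 182, 182 and 231 FPKM after IL-2C and held 25.1% of the sum. The parent row had a change of 0.18 and the Rpl34-ps1 row one of -0.15 (adjusted p = 0.357, limma). Summed, the locus changed by 0.09 (adjusted p = 0.467). No source used here says how fragments were divided between the rows of a pair, so single rows of these 4 loci are uncertain.

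**Figure D4:**
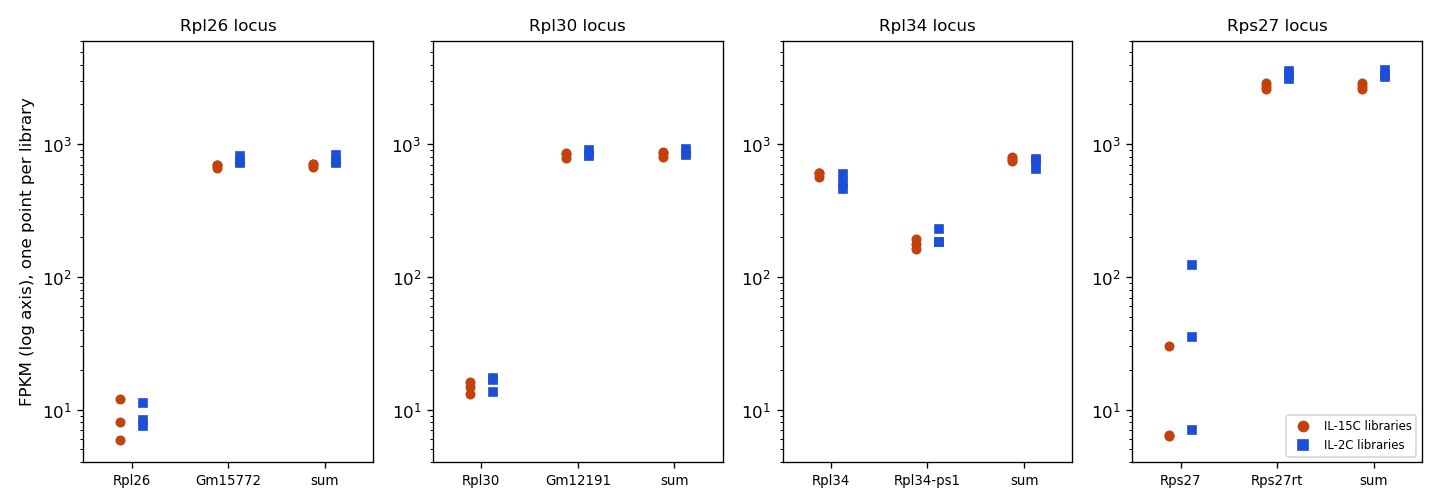
FPKM (log axis, the same scale in all panels) of both rows at 4 loci and of their sum, one point per library (circles IL-15C, squares IL-2C). The copy's name holds nearly all of the sum at Rpl26, Rpl30 and Rps27, and 25.1% at Rpl34.

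Small nucleolar RNAs, which guide rRNA modification, are commonly encoded in introns of ribosomal protein genes. The tables hold 33 such rows inside the loci of 23 of the 88 genes. Only 2 of the 33 were above 0 in any library, Snora70 inside Rpl10 and Snord15b inside Rps3. Snora70 was above 0 in 1 library alone (1127 FPKM in IL-15C replicate 2), and Snord15b in 2 (44.6 FPKM in IL-15C replicate 1 and 36.1 FPKM in IL-2C replicate 2). A value of 0 in these rows does not show that the RNA was absent from the cells.

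The summed FPKM of each subunit, as a share of the summed FPKM of all genes in a library, describes its part of the measured mRNA. The large subunit held 6.73%, 7.04% and 6.93% after IL-15C and 7.15%, 6.84% and 6.96% after IL-2C, and the groups overlapped. The small subunit held 6.09%, 6.34% and 6.24% after IL-15C and 6.77%, 6.49% and 6.51% after IL-2C. Here every IL-15C library was below every IL-2C library, IL-2C replicate 1 being the highest. The difference of the group means was -0.37 percentage points, and -0.22 without the row Rps27rt. The shares without that row were 5.37%, 5.54% and 5.46% against 5.83%, 5.62% and 5.57%, still apart. Since Rps27rt holds 98.9% of the FPKM at the Rps27 locus, these shares leave out nearly all of that locus. On leaving out IL-2C replicate 1 the difference was -0.28 percentage points with all rows and -0.14 without Rps27rt, and the groups did not overlap.

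The ratio of large to small subunit FPKM within a library does not depend on how libraries are scaled. It was 1.106, 1.111 and 1.111 after IL-15C and 1.056, 1.053 and 1.070 after IL-2C. With the 77 standard genes only it was 1.236, 1.253 and 1.252 against 1.209, 1.199 and 1.232, so that the groups nearly touched. That version lacks most FPKM of the Rps27, Rpl26 and Rpl30 loci. Of these, 98.9%, 98.8% and 98.2% lie in the rows named Rps27rt, Gm15772 and Gm12191. With all rows, and the copies' rows added to the large subunit, the ratio was 1.179, 1.188 and 1.189 against 1.131, 1.128 and 1.147. The groups did not overlap in any of these versions. These sums were examined after gene values were known and are given as a description, with no test.

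**Figure D5:**
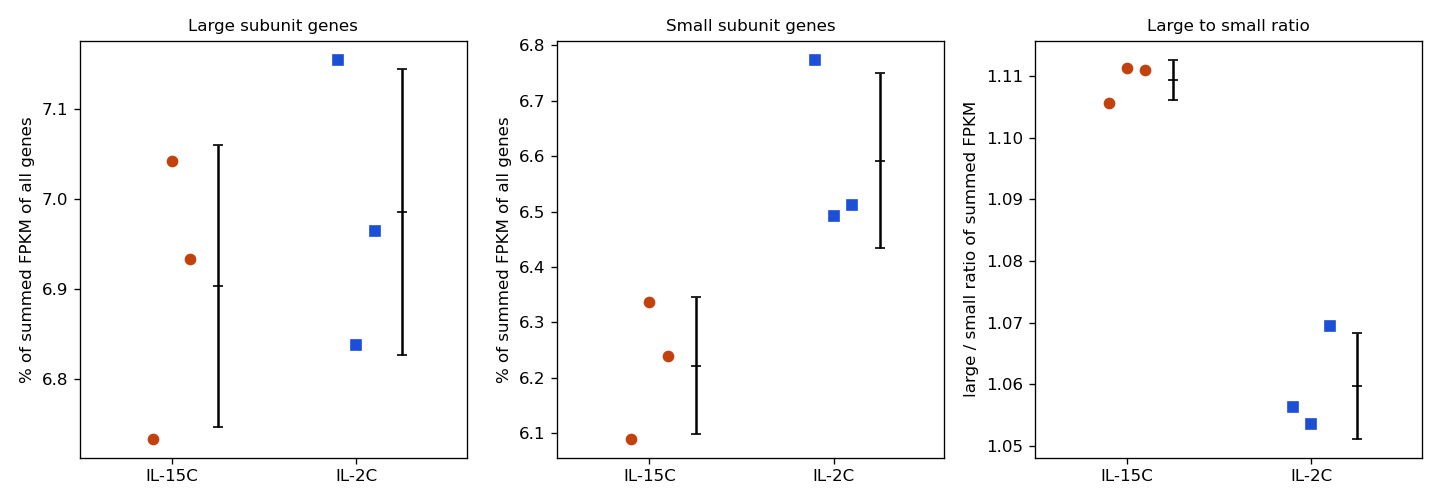
Share of the summed FPKM of all genes held by the large and the small subunit genes, and the large to small ratio, one point per library, with mean ± SD (n = 3) in black beside each group; the axes do not start at 0. The small subunit share is lower and the ratio higher in all 3 IL-15C libraries, while the large subunit shares overlap.

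The mean log2 level of the tested large subunit genes was followed across the 6 libraries most closely by Dazap2 (Pearson r = 0.992), Usp25 (0.989), Tnfsf12 (0.975), Mapkap1 (0.974) and Nipal3 (0.974). For the small subunit the closest were Mrpl18 (0.987), Lrch1 (0.986), Lyn (0.985), Gm15133 (0.984) and Cdc42se1 (0.982). The small subunit mean includes the uncertain Rps27 row, which ranged from 6.34 to 123 FPKM, and it was not computed without that row. How far the genes named for the small subunit follow the Rps27 row was not tested. The genes named for both subunits are the highest among all tested genes outside the family, over only 6 points that share depth and preparation. None of the 10 was called between the groups.

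Subunit proteins outside the naming rule were not called either. Fau, the source of RPS30, was at 941, 1039 and 946 FPKM after IL-15C and 1072, 963 and 959.5 FPKM after IL-2C (-0.03 ± 0.07, adjusted p = 0.801). Gnb2l1, which codes for RACK1 of the small subunit head, was at 578, 608 and 604 FPKM after IL-15C and 604, 563 and 551 FPKM after IL-2C (0.06 ± 0.06, adjusted p = 0.533). Both overlapped between the groups.

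A list of elongation factors and other translation genes (Etf1, Gspt1, Eef2k and Eef1e1 among the latter) had 0 of 12 called and a median of -0.02. Its median without IL-2C replicate 1 was 0.015. Eef1a1, Eef1b2, Eef1d, Eef1g and Eef2 of this list also count among the known TOP genes below. Eef1a1, which brings aminoacyl-tRNA to the ribosome, was at 2696, 2752 and 2755 FPKM after IL-15C and 3051, 2772 and 2733 FPKM after IL-2C (-0.06 ± 0.08, adjusted p = 0.659). The lowest adjusted p of that list belonged to Eif5a2, at 3.21 against 3.81 FPKM (-0.19 ± 0.07, adjusted p = 0.125), followed by Eif5a (0.13 ± 0.07, adjusted p = 0.233) and Eef1d (-0.10 ± 0.05, adjusted p = 0.262). Of the known TOP genes outside the naming rule, these elongation factors included, 0 of 22 were called, 16 were below 0 and the median was -0.03. IL-2C replicate 1 was the highest library for 19 of the 22. Without it 10 were below 0 and the median was 0.004. The TOP list was led by Vim (0.12 ± 0.06, adjusted p = 0.214), the intermediate filament vimentin, and Eif3h (-0.11 ± 0.06, adjusted p = 0.244), a subunit of initiation factor 3.

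Genes of ribosome assembly had 1 of 39 called higher and 0 lower, with 11 below 0 and a median of 0.07, against -0.04 over all tested genes, of which 1.72% were called higher. IL-15C replicate 1 was the highest library for 33 of the 39. Without it 0 were called, 20 were below 0 and the median was -0.01. That library also had the highest S100a8 of granulocytes (42.6 against at most 22.0 FPKM in the others) and the highest Hba-a1 of erythroid cells (12.3 against at most 3.16 FPKM), whose part in the list's values was not tested. The called gene was Nob1, the nuclease that makes the final cut of 18S rRNA, at 10.5, 10.5 and 9.51 FPKM after IL-15C and 8.12, 9.12 and 8.22 FPKM after IL-2C (0.23 ± 0.06, adjusted p = 0.0474). On leaving out any 1 of the 6 libraries Nob1 was no longer called, with an adjusted p of 0.0543 to 0.151. Nor was it called on TPM (adjusted p = 0.0533, limma), without limma's trend (0.0573) or without a filter (0.226). Next were Rrp1b (0.24 ± 0.06, adjusted p = 0.0510) and Rrp12 (0.25 ± 0.08, adjusted p = 0.0958), which did not pass. Of the regulators of mTORC1 and MYC, 1 of 19 was called, higher after IL-15C, against 1.72% of all tested genes. This was Larp1, the protein that binds the TOP tract and the cap, at 27.8, 25.9 and 25.6 FPKM after IL-15C and 21.8, 21.2 and 20.4 FPKM after IL-2C (0.31 ± 0.05, adjusted p = 0.0130). It was higher in 3 of 3 IL-15C libraries than in any IL-2C library. Leaving out IL-2C replicate 1 gave a change of 0.33 (adjusted p = 0.0518) and leaving out IL-2C replicate 2 one of 0.31 (adjusted p = 0.0674), and without a filter its adjusted p was 0.114. Ddit4, an inhibitor of mTORC1, had a change of 0.26 ± 0.08, adjusted p = 0.0711 and Mxd4, a MYC antagonist, one of -0.11 ± 0.04, adjusted p = 0.110.

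The NK markers were high, with a summed 7849 to 8350 FPKM after IL-15C and 7216 to 8379 FPKM after IL-2C, and 0 of 6 were called. Most of this sum was Gzma, at 5691 to 6048 FPKM after IL-15C and 5078 to 6022 FPKM after IL-2C. Eomes was lower in all IL-15C libraries than in any IL-2C library (-0.17 ± 0.05, adjusted p = 0.0755, limma). The groups of the other NK markers overlapped. Marker sums of other cells were 1.04 to 8.67 against 2.92 to 13.8 FPKM for B cells (6 genes), 50.5 to 71.6 against 52.4 to 57.1 FPKM for T cells (6 genes, mostly Cd3g and Cd3d), 36.3 to 93.5 against 33.9 to 52.2 FPKM for granulocytes (6 genes), 1.18 to 21.8 against 1.93 to 3.80 FPKM for erythroid cells (6 genes) and 1.88 to 2.55 against 2.25 to 3.11 FPKM for platelets (3 genes). Of the T cell genes, Cd4, Cd8a and Cd8b1 reached at most 0.033, 0.077 and 0.056 FPKM in any library. The macrophage and dendritic cell list (7 genes) stood at 262 to 277 against 217 to 231 FPKM, nearly all of it Itgax, an integrin that NK cells also carry. Itgax was called (0.29 ± 0.05, adjusted p = 0.0209), as was the granulocyte gene Retnlg (0.57 ± 0.14, adjusted p = 0.0445). Leaving out a library gave adjusted p values of 0.0116 to 0.0972 for Itgax, which was called only without IL-15C replicate 1, and 0.0256 to 0.142 for Retnlg, called only without IL-15C replicate 2. Without a filter neither was called (adjusted p = 0.129 and 0.299, limma). Of the library quality genes, 0 of 4 tested were called, with Malat1 at 0.48 ± 0.17, adjusted p = 0.106. The part of these cells in the ribosomal protein values was not tested.

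The ribosomal protein transcripts are short, with a median annotated length of 630.25 bases against 1317 for the tested genes with a length. Over 83 tested ribosomal protein genes (without Rps27) the change had a Pearson r of 0.175 with log2 length and -0.176 with log2 mean FPKM. These genes share the same 6 libraries, so both values are a description only.

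The authors' deposited table of group values from Cuffdiff lists all 88 genes, and the group intervals of all 88 overlapped there (0 did not). These intervals are wide, such as 916 to 1247 FPKM for Rpl10 and 175 to 2270 FPKM for Rps15 after IL-15C. Rpl3l and Rpl10l stood at 0 in both groups. The share of overlapping intervals over all genes was not computed, so the overlap is not read as a result about these genes. In the authors' deposited table the median ratio of IL-15C to IL-2C was 0.999 for the tested large and 0.984 for the tested small subunit genes. Its values differ from the per-library FPKM. Rpl10 stood there at 1081 FPKM after IL-15C and 1017 FPKM after IL-2C, against per-library means of 797 and 774 FPKM. The ratio for Rpl10 was 1.06 there and 1.03 from the per-library means. A median ratio over all genes was not computed from the authors' values.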

How the data were processed

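RNA from sorted splenic NK cells was sequenced in 3 IL-15C and 3 IL-2C libraries, grouped by the sample titles. The submitters' processing notes name TopHat2 2.0.13, Cufflinks 2.2.1 and the mm10 build, and no source used here names the annotation. The authors deposited FPKM per gene and library and a Cuffdiff table of group FPKM, per the file headers; FPKM is no count, so no count model was fitted. Implied fragments were obtained by taking the deposited interval as 2 SD of a Poisson count to either side, which leaves out the spread between libraries. For some high genes the interval is wider than counting error. Rps27rt at 3053 FPKM implied 2100 to 2182 fragments, and Rpl18 at 674 FPKM 15537 to 18858. The implied totals are therefore rough. Of 24885 rows per library, those of 280 repeated genes were summed and 10 genes with a failed estimate left out.

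Genes with a mean of at least 1 FPKM were tested on log2(FPKM + 1) with limma 3.58.1 (moderated test with trend, two-sided, R 4.3.3) and Benjamini-Hochberg adjustment over 9831 genes at 0.05. The log2(FPKM + 1) scale understates changes of low genes. Lengths, transcripts and copies came from GENCODE vM21, promoter windows from RefSeq, both on GRCm38 (mm10). Tables were made in Python 3.11.15 (numpy 2.4.6, pandas 2.3.3) and plots with matplotlib 3.10.9.

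Members and lists were chosen with earlier results of these data known. The genes named are, per subunit, the 5 with the highest and the 5 with the lowest change, the 3 highest and 3 lowest levels, the stalk, 5S and paralog genes, those below the filter, up to 3 genes per other list by adjusted p, and the 5 genes most correlated with each subunit; others named were chosen after their values were seen. Some genes that this rule would name are not reported here, and they are counted in the totals. Alternatives were other pseudocounts, filters and scalings, limma settings, a replicate block and leaving out each library.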

Additional observations from a re-analysis of the deposited data

How the results depend on the processing

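No ribosomal protein gene was called with the settings of the report, and a few were under other settings. Of the large subunit, quantile normalization called 6 (1 higher, Rplp0, and 5 lower, Rpl11, Rpl19, Rpl31, Rpl7 and Rpl9), array weights called 4 (3 higher, 1 lower) and leaving out each library gave 0 to 1 (Rpl31 without IL-15C replicate 1). Of the small subunit, a filter of 5 FPKM called 1 (Rps27rt), TPM 3 (Rps27rt among them), scaling to the sum without ribosomal protein genes 4 (Rps27rt and Rps3a1 among them), quantile normalization 4 (Rps25 and Rps3a1 among them), limma without trend 1 (Rps27rt), array weights 6 (2 higher, 4 lower) and leaving out each library 0 to 1 (1 without IL-15C replicate 1). The cause was not tested. Counts over all tested genes are given below only for no filter, array weights and leaving out a library. For the other settings no such share stands beside the counts. They are therefore not read as a result about the ribosomal protein genes. The adjusted p of Rps27rt ranged over these settings from 0.0397 to 0.182, apart from 1 without a filter. The count over all tested genes (633) became 29 without a filter, where 24333 genes were tested, 2107 with array weights, and 29 to 751 on leaving out a library, the lowest values being 46 and 29 when IL-2C replicate 1 or 2 was left out. Same-numbered libraries of the 2 groups did not deviate together (r = -0.0292, -0.156 and -0.0244), so the numbers were not taken as pairs; with a replicate block the small subunit count was 1 and the large subunit count stayed at 0. The gap in small subunit share (-0.37 points) was -0.217 without paralogs and partners and -0.215 without Rps27rt, the latter, its value without IL-2C replicate 1 and the summing of rows at one locus chosen after seeing the data. Median scaling moved the medians to -0.001 (large) and -0.022 (small), with 0.000503 for all tested genes. Small changes that turned sign were those of Rpl22l1 (0.0343 under median scaling, 0.00495 under TPM, 0.0585 with array weights, 0.0494 with length and GC trends removed, -0.0510 to 0.0442 on leaving out a library), Rpl7l1 (-0.0345 with array weights, -0.0561 to 0.0936 on leaving out a library), Rpl12 (-0.0147 to 0.0528), Rpl26 (-0.318 to 0.130) and Rplp2 (-0.0926 to 0.00130), the last 3 on leaving out a library. FPKM without counts limits the precision to the spread of 3 libraries per group.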
